A study of Mus musculus with 228 samples.

Results

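Presentation of peptides by class I molecules of the major histocompatibility complex (MHC) was followed through 10 of the 22870 genes measured in single hippocampal neurons of the mouse. They are the heavy chains H2-K1 and H2-D1, the light chain B2m, the peptide transporter genes Tap1 and Tap2, the loading factor Tapbp, the transcriptional activator Nlrc5 and the immunoproteasome subunits Psmb8, Psmb9 and Psmb10. All 10 were found in the count table by symbol. The genes were chosen by their summed levels in Ascl4 against GFP cells, which were already known, so every difference between groups below is a description.

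The neurons came from ventral hippocampus and were drawn into a patch pipette from acute slices of mice 3 to 4 months old, 1 month after virus was injected into the hippocampus. The Cre line was Calb1-Cre for granule cells and Nex-Cre for pyramidal cells of medial CA1, and the effects of cell type and of line cannot be told apart. In both, GFP cells carried only a Cre-dependent adeno-associated virus (AAV) for EGFP, and Ascl4 cells received that virus and an AAV for the basic helix-loop-helix factor Ascl4. Thus all 4 groups carried Cre and AAV-EGFP, and an effect of Ascl4 and an effect of a second virus cannot be told apart. The table held 47 GFP granule cells, 51 Ascl4 granule cells, 46 GFP CA1 cells and 45 Ascl4 CA1 cells. No animal is named in the labels, so each group was 1 sample and no test between groups could be made.

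Reads assigned to genes numbered 1077532 to 25442664 per cell. Levels are reads summed over the cells of a group per 1000000 gene reads (CPM), or the same within 1 cell. Ascl4 stood at 47.2 CPM in GFP granule cells against 14111 in Ascl4 granule cells, and at 32.6 against 9395 in CA1. Granule cell and CA1 markers followed the labels except in 12 cells (4 Ascl4 granule and 8 Ascl4 CA1 cells), in which the list of the other cell type had the higher sum. Transcripts of microglia were found in many of the patched cells: at least 3 of 24 microglia and macrophage markers reached 10 CPM in 9 GFP granule, 19 Ascl4 granule, 26 GFP CA1 and 37 Ascl4 CA1 cells.

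MHC class I molecules show short peptides from a cell's own proteins at its surface. The proteasome cuts the proteins, the transporter made of Tap1 and Tap2 carries the peptides into the endoplasmic reticulum, tapasin (Tapbp) holds the transporter against an empty heavy chain, and a heavy chain leaves for the surface only with B2m and a peptide. Interferons raise most of these genes, partly through Nlrc5, and replace the catalytic proteasome subunits with Psmb8, Psmb9 and Psmb10. In the resting brain, neurons carry little class I, whereas microglia carry more.

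The promoters of the 2 heavy chains and the light chain are shown because these 3 genes gave most of the reads of Ascl4 cells, and that of Tap1 because Psmb9 starts on the other strand within it. Each is the 250 bases before the first base of the gene, from RefSeq (GRCm38.p6), 5′ to 3′ on the strand of the gene: H2-K1 on the minus strand at chr17:34000348-34000597, H2-D1 on the plus strand at chr17:35262844-35263093, B2m on the plus strand at chr2:122147437-122147686 and Tap1 on the plus strand at chr17:34187306-34187555. Capitals mark matches, on either strand, to AANNGAAA (a core of interferon-responsive elements), GGGNNTTCC (a κB-like element), TGACG (the core of a cyclic AMP element) and CCAAT, which reads ATTGG on the other strand.
H2-K1: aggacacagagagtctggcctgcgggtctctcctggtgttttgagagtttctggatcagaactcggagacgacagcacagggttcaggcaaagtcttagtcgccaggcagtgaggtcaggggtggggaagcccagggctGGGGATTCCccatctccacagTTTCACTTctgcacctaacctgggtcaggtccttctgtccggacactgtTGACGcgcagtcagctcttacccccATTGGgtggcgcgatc
H2-D1: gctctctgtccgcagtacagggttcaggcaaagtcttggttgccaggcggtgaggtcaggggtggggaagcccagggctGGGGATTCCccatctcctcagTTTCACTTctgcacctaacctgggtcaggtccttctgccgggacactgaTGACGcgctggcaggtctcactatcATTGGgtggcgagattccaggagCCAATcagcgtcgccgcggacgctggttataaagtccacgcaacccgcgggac
B2m: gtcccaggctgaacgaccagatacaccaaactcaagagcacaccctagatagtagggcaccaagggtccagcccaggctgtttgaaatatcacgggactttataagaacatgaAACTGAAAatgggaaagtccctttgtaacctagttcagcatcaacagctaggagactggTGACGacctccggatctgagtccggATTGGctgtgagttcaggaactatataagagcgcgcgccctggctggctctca
Tap1: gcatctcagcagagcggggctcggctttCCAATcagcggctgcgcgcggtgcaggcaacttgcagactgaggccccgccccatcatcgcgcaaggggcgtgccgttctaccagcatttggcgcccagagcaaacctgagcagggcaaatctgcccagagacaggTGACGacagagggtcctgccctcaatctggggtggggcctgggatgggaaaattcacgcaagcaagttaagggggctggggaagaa

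In H2-K1, H2-D1 and B2m, TGACG was followed by ATTGG with first bases 25 apart. TGACG began at position -41 in H2-K1, -101 in H2-D1 and -78 in B2m, counted back from the first base of each gene. That pair at that distance stood in 25 of 27025 mouse promoters of this length (0.0925%), among them that of a further class I heavy chain, H2-M3. An AANNGAAA match was present in these same 3 genes of the 8 with a promoter sequence (21.6% of all promoters), and GGGNNTTCC in H2-K1 and H2-D1 (4.88%). TGACG was present in 5 of the 8 (17.9%) and CCAAT in 6 (34.5%). TTCNNNGAA was present in Psmb8 (7.18%), and the E-box CAGCTG in none of the 8 (12.8%). Tap1 and Psmb9 start close together on opposite strands, and the TGACG of the Tap1 window (-86 from Tap1) is also the one of the Psmb9 window (-144 from Psmb9). A match is a description of letters, and no entry was used for Tap2 or Nlrc5.

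In the annotation (GENCODE M21, GRCm38), 7 of the 10 genes lie on chromosome 17: Tapbp (33915899 to 33929292), H2-K1 (33996017 to 34000347), Psmb9 (34181987 to 34187764), Tap1 (34187553 to 34197225), Psmb8 (34197721 to 34201454), Tap2 (34203527 to 34216321) and H2-D1 (35262730 to 35267499). Nlrc5 (94434356 to 94527272) and Psmb10 (105935735 to 105938444) lie on chromosome 8, and B2m (122147686 to 122153083) on chromosome 2. Exons of Tap1 and Psmb9 overlap on opposite strands, as do those of Tap2 and Gm15821, and exons of Tapbp overlap Zbtb22 on the same strand. The strand setting of the counting is not given in the sources used here. Coding sequences of H2-K1 and H2-D1 were 92% identical over 1075 aligned bases, with 91 identical bases in the longest run, so the split of reads between these paralogs is uncertain.

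The heavy chain H2-D1 in granule cells ranged from 0 through a median of 0.196 to 201.8 CPM per cell with GFP, and from 0 through 3.00 to 4610 CPM with Ascl4. In CA1 it ranged from 0 through 0.379 to 1429 CPM with GFP, and from 0 through 2.47 to 13983 CPM with Ascl4. In each group most cells were near 0, the groups overlapped, and the Ascl4 groups held more cells far above the rest: H2-D1 reached 10 CPM in 5 of 47 GFP and 19 of 51 Ascl4 granule cells, and in 5 of 46 GFP and 19 of 45 Ascl4 CA1 cells. Those shares were 10.6% (exact 95% binomial interval 3.55 to 23.1%) and 37.3% (24.1 to 51.9%) in granule cells. In CA1 they were 10.9% (3.62 to 23.6%) and 42.2% (27.7 to 57.8%). Summed over cells, H2-D1 stood at 7.21 CPM (exact 95% Poisson interval 6.85 to 7.58) against 345 (343 to 347) in granule cells, a log2 ratio of 5.40 with 1 CPM added to each level. In CA1 it stood at 47.4 CPM (46.5 to 48.3) against 785 (781 to 789), a log2 ratio of 4.02. With each cell left out in turn the ratio ran from 4.90 to 6.34 in granule cells, and in CA1 from 2.86 without Ascl4 cell WA226 to 5.31 without GFP cell WA206. The intervals above cover counting error only, since polymerase copies of 1 molecule are not separated by molecular tags, and adding 1 CPM understates the ratio of genes with low levels.

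H2-K1 was seen in fewer cells. It reached 10 CPM in 1 GFP granule cell, 11 Ascl4 granule cells, 1 GFP CA1 cell and 12 Ascl4 CA1 cells. Its cells ranged from 0 through a median of 0 to 408 CPM in GFP granule cells and from 0 through 0.431 to 1521 CPM in Ascl4 granule cells. In CA1 they ranged from 0 through 0 to 42.9 CPM with GFP and from 0 through 0.438 to 3388 CPM with Ascl4. GFP granule cell WA064 held 98.4% of all H2-K1 reads of its group, and the next cell stood at 4.23 CPM. The summed level was 12.4 CPM against 82.6 in granule cells (log2 ratio 2.64) and 0.837 against 205.3 in CA1 (6.81). Without cell WA064 the granule cell ratio was 6.11, and without Ascl4 CA1 cell WA226, which held 52.7% of its group's reads of H2-K1, the CA1 ratio was 5.78.

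B2m, the light chain that every class I heavy chain needs, was the gene of the 10 found at 10 CPM in the most cells of both Ascl4 groups: 25 of 51 granule cells (49%, interval 34.8 to 63.4%) and 30 of 45 CA1 cells (66.7%, 51.0 to 80%). With GFP it reached that level in 7 of 47 granule cells (14.9%, 6.20 to 28.3%) and 13 of 46 CA1 cells (28.3%, 15.99 to 43.5%). Its granule cells ranged from 0 through a median of 0.226 to 251 CPM with GFP and from 0 through 5.65 to 1423 CPM with Ascl4, and its CA1 cells from 0 through 0.773 to 1497 CPM with GFP and from 0 through 59.2 to 8203 CPM with Ascl4. The groups overlapped, but the middle of the distribution also moved, most in CA1. The log2 ratio of summed levels was 3.78 in granule cells (12.9 against 189.6 CPM) and 3.30 in CA1 (48.9 against 492 CPM). Without WA226, which held 53.3% of the B2m reads of Ascl4 CA1 cells, the CA1 ratio was 2.26.

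Transporter transcripts were scarce. Tap1 had 2 reads in all GFP granule cells and 940 in the Ascl4 granule cells (3.21 CPM), a ratio of levels of 345 whose counting interval runs from 95.2 to 2852. Tap1 reached 10 CPM in only 2 Ascl4 granule and 3 Ascl4 CA1 cells, and in no GFP cell. In CA1 its level was 0.264 CPM with GFP and 5.66 CPM with Ascl4 (log2 ratio 2.40, and 1.66 without WA226). The granule cell log2 ratio was 2.06, and 1.21 without Ascl4 cell WA112. Tap2 likewise had 2 reads in GFP granule cells and 2210 in Ascl4 granule cells (7.54 CPM), but Ascl4 granule cell WA044 gave 75.7% of them, and the log2 ratio was 3.08 with it and 1.503 without. Tap2 in CA1 stood at 3.79 CPM with GFP, of which cell WA196 gave 98.4%, and at 12.5 CPM with Ascl4, with 4 cells at 10 CPM (log2 ratio 1.49). Without WA226 that ratio was 0.91, and without WA196 it was 3.67.

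Tapbp, which edits the peptides that class I takes up, was the loading gene with the highest level in GFP cells and had a smaller ratio. It reached 10 CPM in 3 GFP and 10 Ascl4 granule cells, with highest cells at 189.7 and 671 CPM. In CA1 it reached 10 CPM in 10 GFP and 13 Ascl4 cells, with highest cells at 345 and 349 CPM and medians of 0.245 and 0.301. The summed levels were 16.9 against 44.3 CPM in granule cells (log2 ratio 1.34) and 41.6 against 74.3 CPM in CA1 (0.82). The granule cell ratio was 0.81 without Ascl4 cell WA040 and 2.59 without GFP cell WA100. Without Ascl4 CA1 cell WA140, the deepest cell of its group, the CA1 ratio was 0.43, below 1.5-fold.

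Nlrc5, the activator of class I promoters, was close to absent. Granule cells held 1 read of Nlrc5 with GFP and 4 with Ascl4. In CA1 the level was 0.737 CPM with GFP and 1.09 CPM with Ascl4, and 1 cell gave 99.5% and 91.8% of these reads. Its ratio did not reach 1.5-fold in either cell type (log2 0.01 and 0.27), but the CA1 ratio was -0.67 without Ascl4 cell WA228 and 1.06 without GFP cell WA200.

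The immunoproteasome subunits were found in few cells at high levels. Psmb8 reached 10 CPM in 1 GFP and 10 Ascl4 granule cells, with highest cells at 287 and 987 CPM, and in 7 GFP and 11 Ascl4 CA1 cells, with highest cells at 262 and 839 CPM. Summed Psmb8 was 5.04 against 33.4 CPM in granule cells (log2 ratio 2.51) and 25.3 against 74.7 CPM in CA1 (1.53). Psmb9 reached 10 CPM in 1 GFP and 8 Ascl4 granule cells, and in 5 cells of each CA1 group. Its summed level was 4.60 against 21.7 CPM in granule cells (2.02) and 12.1 against 20.2 CPM in CA1 (0.69). In GFP granule cells 1 cell gave 98.6% of the Psmb8 reads and another gave 98.9% of the Psmb9 reads. Without these cells, WA062 and WA091, the granule cell ratios were 5.01 for Psmb8 and 4.43 for Psmb9. The CA1 ratio of Psmb9 was 0.30, below 1.5-fold, without Ascl4 CA1 cell WA180, and the gene was lower with Ascl4 in the mean of per-cell CPM (-0.28). Psmb10 was at 10 CPM in 9 GFP and 12 Ascl4 granule cells and in 14 GFP and 17 Ascl4 CA1 cells. Its log2 ratio was 0.98 in granule cells (22.9 against 46.2 CPM) and -0.26 in CA1 (63.9 against 53.1 CPM).

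**Figure D1:**
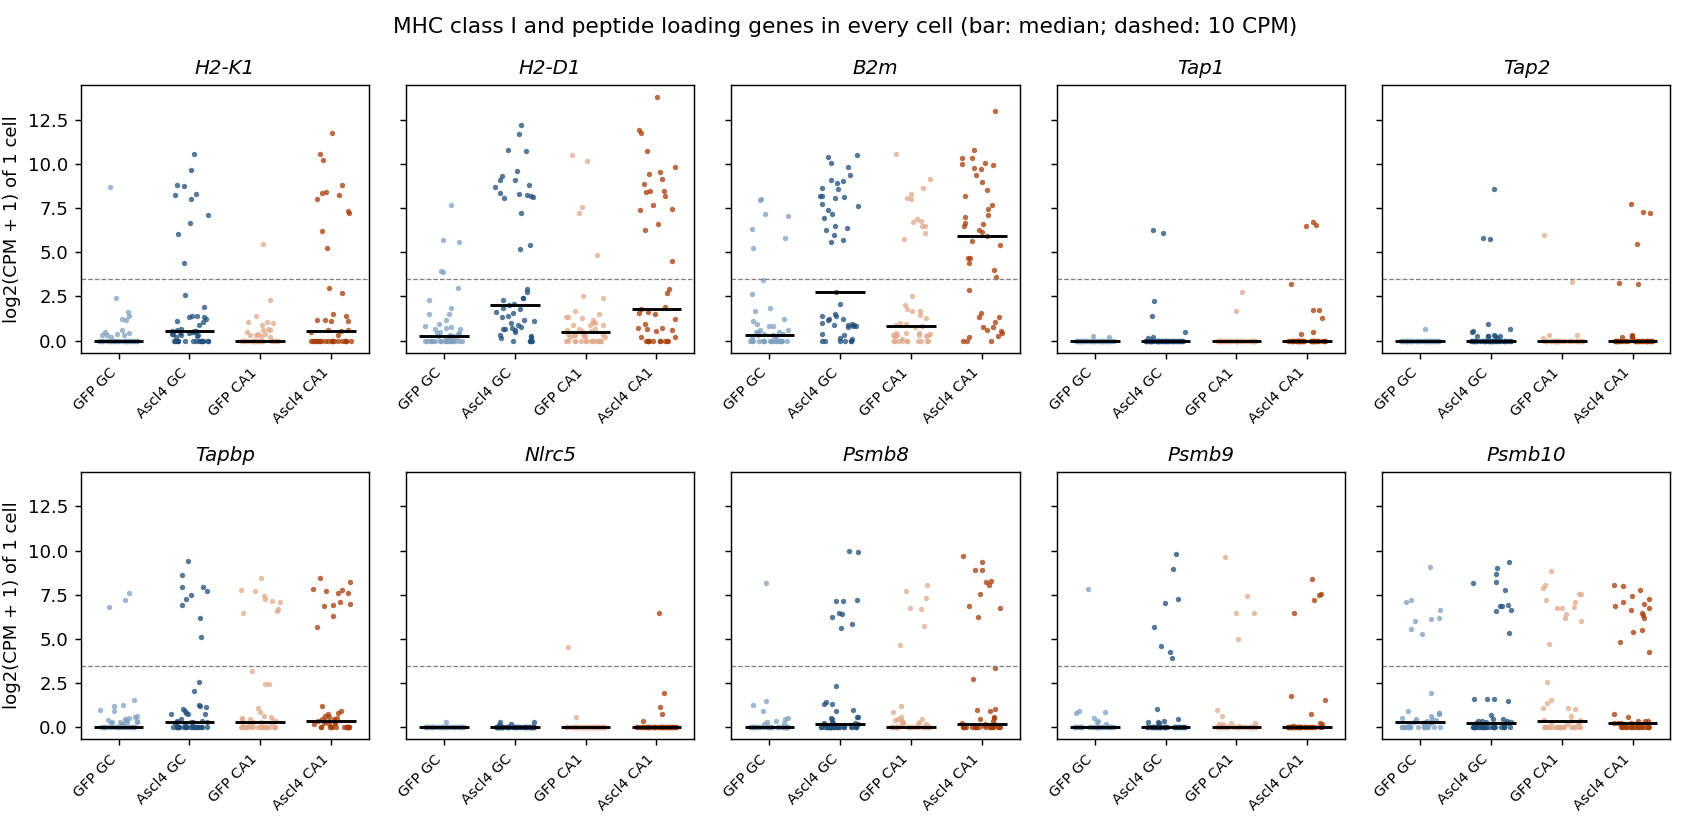
Level of each of the 10 genes in every cell, as log2(CPM + 1), by group; bars are group medians and the dashed line is 10 CPM. Every median lies below 10 CPM except that of B2m in Ascl4 CA1 cells (59.2 CPM).

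Counted together, 9 of the 10 genes were at least 1.5-fold higher in Ascl4 than in GFP granule cells and none was lower, where 29.9% of all 12821 genes tested were higher and 31.9% lower. In CA1, 8 of the 10 were higher and none lower, where 29.5% of 13497 genes were higher and 26.7% lower. The median log2 ratio of the 10 was 2.29 in granule cells (all genes: -0.05) and 1.51 in CA1 (all genes: 0.02). Since the genes were picked for these contrasts, nothing is read from the counts. No single cell changed the granule cell count, which was 9 without any of the 98 cells in turn, and the CA1 count ranged from 7 to 9. The title numbers of each group fall into an earlier and a later run, which the labels do not call batches.

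The earlier run held 15 GFP and 33 Ascl4 granule cells and 15 GFP and 17 Ascl4 CA1 cells, and the later run 32 and 18, and 31 and 28. In granule cells 5 genes were at least 1.5-fold higher in both runs: H2-K1 (6.28 and 1.46), H2-D1 (4.66 and 6.0), B2m (6.95 and 3.34), Tap2 (3.53 and 2.29) and Psmb8 (5.65 and 0.86). In CA1 the heavy chains H2-K1 (4.07 and 7.29) and H2-D1 (2.22 and 4.56) and B2m (1.00 and 4.63) did so, and no other gene. Of all genes tested, 12.8% were higher in both runs in granule cells and 11.3% in CA1. Tapbp was higher in the earlier run alone (1.88 in granule cells and 1.51 in CA1, against -0.09 and -0.06). Psmb9 in CA1 was lower with Ascl4 in the earlier run (-4.25) and higher in the later run (1.96).

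**Figure D2:**
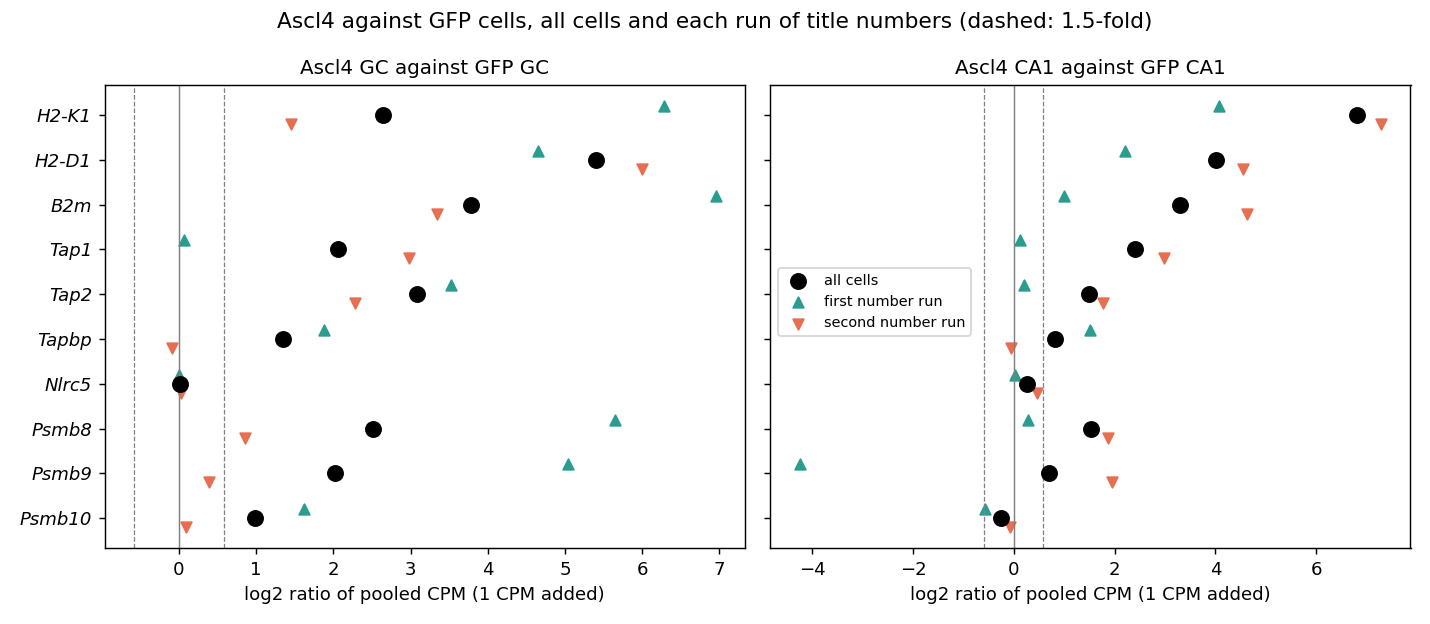
Log2 ratio of summed CPM (1 CPM added), Ascl4 against GFP, for granule cells (left) and CA1 cells (right), over all cells and in each run of title numbers; dashed lines are 1.5-fold. H2-K1, H2-D1 and B2m lie to the right of the dashed line in both runs of both cell types, and Psmb9 in CA1 lies on opposite sides of 0.

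Levels were also compared per kilobase of all annotated exons of a gene, which is not the length of 1 transcript. The order in Ascl4 granule cells was B2m (220 CPM per kilobase), H2-D1 (133.8), H2-K1 (28.1), Psmb10 (27.1), Tapbp (12.2), Psmb8 (9.89), Psmb9 (5.93), Tap2 (1.99), Tap1 (0.586) and Nlrc5 (0.00161). In GFP granule cells B2m (15) and Psmb10 (13.4) led, followed by Tapbp (4.64), H2-K1 (4.22), H2-D1 (2.80), Psmb8 (1.49) and Psmb9 (1.26). B2m was also first in both CA1 groups per kilobase (56.9 with GFP and 572 with Ascl4), with Psmb10 (37.5) next in GFP CA1 cells and H2-D1 (304) next in Ascl4 CA1 cells. Neighbours in these orders were compared without a test.

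The number of the 10 genes at 10 CPM was counted within each cell. The counts expected from genes that vary independently were not computed. At least 3 of the 10 reached 10 CPM in 1 of 47 GFP granule cells (2.13%, interval 0.0539 to 11.3%), 16 of 51 Ascl4 granule cells (31.4%, 19.1 to 45.9%), 6 of 46 GFP CA1 cells (13.04%, 4.94 to 26.3%) and 18 of 45 Ascl4 CA1 cells (40%, 25.7 to 55.7%). When every cell was thinned to 500000 reads, these counts were 3, 16, 6 and 19. No gene of the 10 reached that level in 26, 17, 16 and 8 cells of the same groups in the same order. The median sum of the 10 genes per cell was 4.38, 277, 115.5 and 365 CPM, and the highest 530, 7182, 2062 and 26791 CPM. Ascl4 CA1 cell WA226 held that highest sum and 9 of the 10 genes at 10 CPM, all but Nlrc5, and the next Ascl4 CA1 cell had 6836 CPM. Median depth was 4919526 reads in the Ascl4 granule cells with 3 or more of the genes and 4604357 in the others, and 4211477 against 3492491 in Ascl4 CA1 cells.

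H2-D1 and B2m were both at 10 CPM in 17 Ascl4 granule and 17 Ascl4 CA1 cells, against 1 GFP granule and 5 GFP CA1 cells. H2-D1 thus had B2m beside it in 17 of 19 cells in each Ascl4 group. H2-K1 and H2-D1 were both at that level in 8 of the 11 Ascl4 granule cells and 10 of the 12 Ascl4 CA1 cells that had H2-K1. Psmb8 and Psmb9 coincided in 6 Ascl4 granule and 3 Ascl4 CA1 cells. Tap1 and Psmb9, which start on opposite strands within 1 promoter, coincided in 1 cell of each Ascl4 group.

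Microglia RNA was higher with Ascl4 in both cell types, as was the sum of the 10 genes. That sum was 81.9 CPM in GFP granule, 773.5 in Ascl4 granule, 244.8 in GFP CA1 and 1724 in Ascl4 CA1 cells. It was thus lower in GFP CA1 than in Ascl4 granule cells, whereas the microglia list was higher. The 24 microglia and macrophage markers summed to 879 CPM in GFP granule, 1943 in Ascl4 granule, 2565 in GFP CA1 and 5313 in Ascl4 CA1 cells, and per cell from 0.960 to 18170, 0.512 to 18482, 8.34 to 27570 and 1.30 to 67172 CPM. WA226 gave 40.4% of the list reads of Ascl4 CA1 cells, which stood at 3272 CPM without it. WA091 gave 41.6% of those of GFP granule cells, which stood at 524 CPM without it. Of the list, 13 of 24 were at least 1.5-fold higher and 1 lower with Ascl4 in granule cells, and 15 higher and 2 lower in CA1. Shares of all genes were 29.9% higher and 31.9% lower in granule cells, and 29.5% and 26.7% in CA1. Pf4 was at 0 in GFP granule cells, and all 24 had reads in the other groups. The homeostatic marker Tmem119 stood at 0.00930, 24.2, 1.74 and 16.9 CPM in GFP granule, Ascl4 granule, GFP CA1 and Ascl4 CA1 cells. In the same order Cx3cr1 stood at 0.200, 11.9, 30.9 and 40.7 CPM, P2ry12 at 31.3, 35.3, 102.4 and 95.6 CPM, Csf1r at 79.5, 53.1, 230.2 and 166.7 CPM, and C1qa at 36.8, 80.7, 125.7 and 259 CPM. So C1qa and Tmem119 were higher with Ascl4 in both cell types while P2ry12 and Csf1r were not.

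Within groups, the mean log2 level of the 10 genes per cell had a Spearman correlation with the summed microglia list of 0.34 over 47 GFP granule cells, 0.58 over 51 Ascl4 granule cells, 0.55 over 46 GFP CA1 cells and 0.78 over 45 Ascl4 CA1 cells. Both measures share the library of the cell, and cells with more of the genes also had more genes detected (rho 0.23, 0.55, 0.55 and 0.58). The correlation with the Ascl4 level of the cell was 0.15, -0.14, -0.08 and 0.00. All 18 Ascl4 CA1 cells with 3 or more class I and loading genes also had 3 or more microglia markers, as did all 6 such GFP CA1 cells and 11 of the 16 such Ascl4 granule cells. The part of microglia RNA in these differences was not tested.

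**Figure D3:**
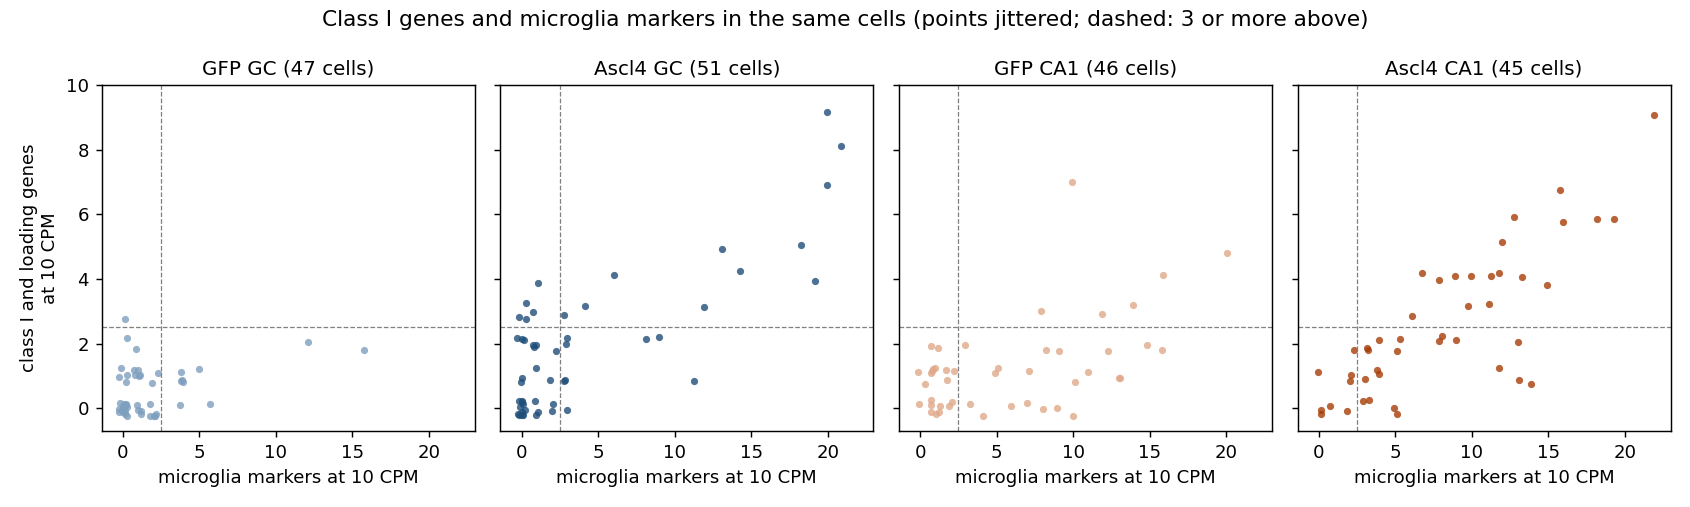
Number of the 10 genes at 10 CPM against the number of 24 microglia markers at 10 CPM, 1 point per cell, jittered, with 1 panel per group; dashed lines set off 3 or more of either. The upper left field holds 1 GFP granule cell and 5 Ascl4 granule cells and no CA1 cell.

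The 5 remaining Ascl4 granule cells had fewer than 3 microglia markers, and 3 of them, cells WA033, WA045 and WA046, had none at 10 CPM. Cell WA033 had H2-K1 at 443, B2m at 668 and Psmb10 at 281 CPM, WA045 had H2-K1 at 135.9, B2m at 288 and Psmb10 at 292 CPM, and WA046 had H2-D1 at 269.7, B2m at 265 and Psmb10 at 39.4 CPM. Their microglia lists summed to 7.06, 15.6 and 10.5 CPM. Over all granule cells without a marker at 10 CPM (21 with GFP and 19 with Ascl4), B2m stood at 7.33 against 113.6 CPM, H2-D1 at 4.12 against 45.1, H2-K1 at 0.323 against 26.7 and Tapbp at 6.69 against 14.6. The microglia list summed to 9.70 and 8.16 CPM in these cells. Psmb8 (0.0808 against 0.272 CPM) and Psmb9 (0.0462 against 0.116 CPM) were near 0 there in both groups. These sums rest on few cells. Among the 21 GFP and 19 Ascl4 cells, H2-D1 reached 10 CPM in 2 and 3, H2-K1 in 0 and 2, and B2m in 2 and 6. Cells WA109 and WA046 gave 93.9% of the H2-D1 reads of these Ascl4 cells, and H2-D1 was 3.05 CPM without them, against 0.656 CPM in the GFP cells without their own top 2. Cells WA033 and WA045 gave 97.5% of the H2-K1 reads, and H2-K1 was 0.724 CPM without them. B2m was 51.2 CPM without its top 2 cells. Tapbp came almost whole from WA031 (97.4%) and was 0.412 CPM without it. Psmb8 and Psmb9 reached 10 CPM in none of these 40 cells.

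In CA1 the data for such a comparison were thin, since no marker reached 10 CPM in only 3 cells of each group. With fewer than 3 markers there were 20 GFP and 8 Ascl4 CA1 cells. H2-D1 stood at 0.577 CPM against 39.03 in them, but B2m at 14.1 against 4.59, Tapbp at 40.7 against 0.103, H2-K1 at 0.281 against 0.413 and Psmb8 at 0.600 against 0.335. Only 2 of the 10 genes, H2-D1 and Tap1, were at least 1.5-fold higher with Ascl4 in these cells, and 4 were lower, where 30.02% of all 11460 genes tested in the same cells were higher and 45.1% lower. The Tap1 reads came from 1 cell, at 102.7 CPM, and WA233 and WA223 gave 99.2% of the H2-D1 reads of the Ascl4 cells, which stood at 0.423 CPM without them. In the GFP cells WA198 gave 97.2% of the B2m reads, and B2m was 0.393 CPM without it, below the Ascl4 value. These sums thus turn on single cells in both directions.

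Among cells with 3 or more microglia markers the Ascl4 groups were again higher. In the 9 GFP and 19 Ascl4 granule cells of this kind, H2-D1 stood at 6.77 against 829 CPM, B2m at 19.4 against 393 and H2-K1 at 0.309 against 202.2, while the microglia list stood at 4200 and 5820 CPM. In the 26 GFP and 37 Ascl4 CA1 cells, H2-D1 stood at 96.9 against 949.6 CPM, B2m at 85.6 against 599.7 and H2-K1 at 1.43 against 251, with the list at 5041 and 6463 CPM. WA226 gave 57.4% of these H2-D1 reads. Without it the Ascl4 CA1 cells of this kind stood at 421 CPM for H2-D1, 291 for B2m and 123.2 for H2-K1, with the list at 3998 CPM, below the GFP value. In Ascl4 granule cells of this kind, WA032 gave 40.9% of the H2-D1 reads and 55.3% of the H2-K1 reads, and without it they stood at 529 and 97.7 CPM. Psmb8 differed less in CA1, at 51.3 against 91.2 CPM. In granule cells of this kind it stood at 27.6 against 93.5 CPM. However, WA062 (287 CPM) was the only 1 of the 9 GFP cells at 10 CPM, with a median of 0, against 9 of the 19 Ascl4 cells. Set against the microglia list over all cells, the 10 genes had 93.2 reads per 1000 list reads in GFP granule and 95.4 in GFP CA1 cells, against 398 in Ascl4 granule and 324 in Ascl4 CA1 cells. On this scale H2-D1 (8.20, 177.6, 18.5 and 147.7) and H2-K1 (14.1, 42.5, 0.326 and 38.6) were higher with Ascl4 in both cell types, whereas Psmb10 (26.01, 23.8, 24.9 and 10) and Psmb9 in CA1 (4.73 and 3.80) were not.

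**Figure D4:**
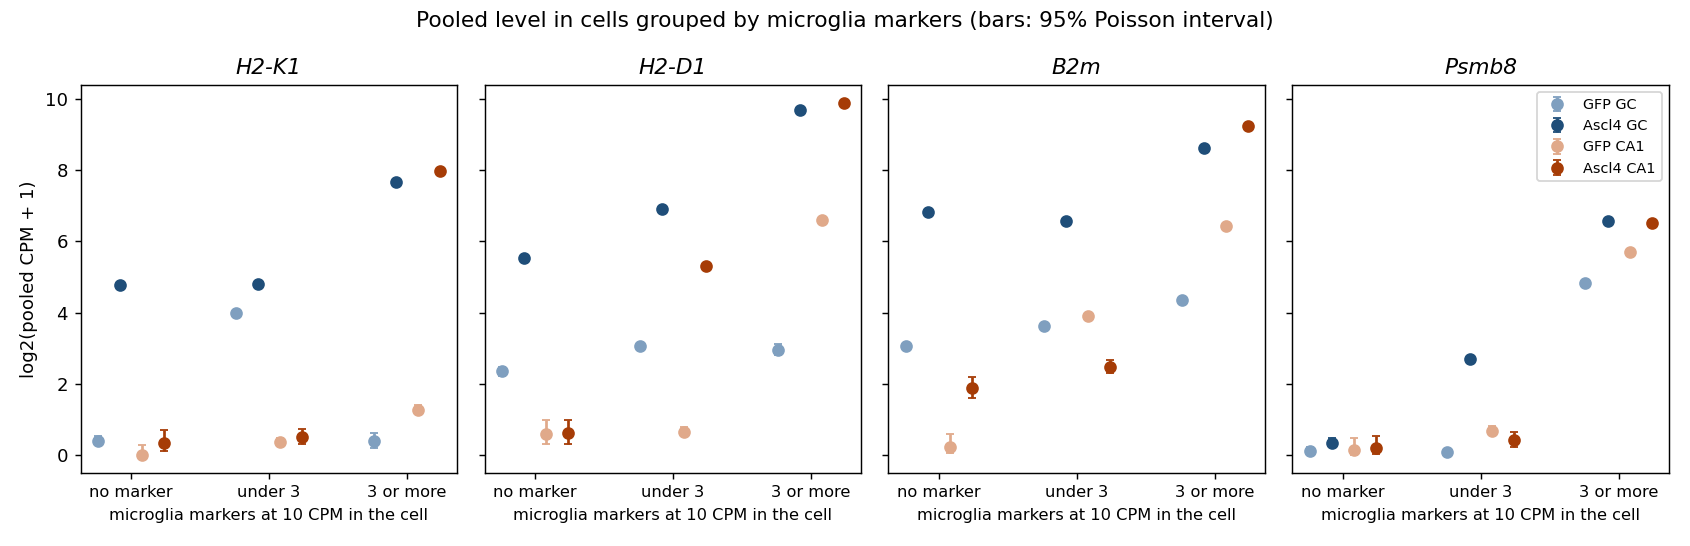
Summed level of H2-K1, H2-D1, B2m and Psmb8, as log2(CPM + 1), in cells with no microglia marker at 10 CPM, with fewer than 3 (which includes the former) and with 3 or more; bars are 95% Poisson intervals. In granule cells H2-D1 and B2m are higher with Ascl4 in all 3 classes, whereas Psmb8 is near 0 in cells with no marker.

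Of other immune cells, only T and NK cells were looked at, and their markers were low in the group sums. The 12 markers of T and NK cells summed to 0.0233 CPM in GFP granule, 0.160 in Ascl4 granule, 3.16 in GFP CA1 and 0.948 in Ascl4 CA1 cells, with Nkg7 at 0 in all 4 groups. The highest cell of each group stood at 0.453, 2.16, 47.3 and 77.03 CPM in that order. The 10 endothelial markers summed to 4.18, 23.8, 9.92 and 21.6 CPM. The 10 oligodendrocyte markers summed to 625 CPM in GFP granule and 7597 in Ascl4 granule cells, and to 867 and 873 in CA1, with Mbp, a myelin protein, at 438, 5754, 518 and 544 CPM. The median cell went the other way, from 238 CPM with GFP to 44.7 with Ascl4 in granule cells, and WA117 and WA118 gave 68.03% of the list reads of Ascl4 granule cells. Ascl4 granule cells with more than 12000 genes numbered 4, and all 4 were among the 16 cells with 3 or more class I and loading genes. Without those, the count was 12 of 47 cells (25.5%), and 9 of the 10 genes were still at least 1.5-fold higher than in GFP granule cells, where 29.5% of all genes were.

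Interferon-induced genes were compared as a further list. Of 33 such genes, 30 were at least 1.5-fold higher with Ascl4 in each cell type, with none lower in granule cells and 1 in CA1. Among all genes 29.9% were higher and 31.9% lower in granule cells, and 29.5% and 26.7% in CA1. Ifit1 stood at 0.409, 163.7, 0.0240 and 45.5 CPM in GFP granule, Ascl4 granule, GFP CA1 and Ascl4 CA1 cells, Ifit3 at 0.163, 144.2, 0.869 and 86.7 CPM, and Lgals3bp at 1.76, 55.4, 0.0721 and 140.01 CPM. Of 27 Ascl4 granule cells with 3 or more interferon-induced genes at 10 CPM, 9 also had 3 or more class I and loading genes and 18 did not. Of 25 such Ascl4 CA1 cells, 16 did and 9 did not. Among cells with fewer than 3 interferon-induced genes, 7 of 24 Ascl4 granule and 2 of 20 Ascl4 CA1 cells had 3 or more class I and loading genes. In Ascl4 granule cells H2-D1 stood at 344 CPM with and 346 CPM without 3 interferon-induced genes, but WA032 gave 68.4% of the latter reads, and without it the level was 115.2 CPM. H2-D1 reached 10 CPM in 13 of 27 cells with and 6 of 24 cells without them, with medians of 5.65 and 2.20 CPM. B2m stood at 181.3 and 199.5 CPM, with medians of 51.3 and 3.64 CPM. In Ascl4 CA1 cells H2-D1 stood at 1149 and 297 CPM and B2m at 749 and 147.5 CPM in the same split, and the microglia list at 7637 and 2204 CPM. Without WA226 the first of each pair was 391 CPM for H2-D1, 309 for B2m and 4117 for the list. Without WA177, which gave 87.2% of the H2-D1 reads of the other class, the second was 40.8, 66.8 and 871 CPM. Over cells the mean level of the 10 genes had a correlation with the interferon list of 0.25 in Ascl4 granule and 0.67 in Ascl4 CA1 cells.

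Transcription factors of class I promoters were compared next. Of 12 listed, 5 were at least 1.5-fold higher and 3 lower with Ascl4 in granule cells, and 5 higher and none lower in CA1. Among all genes 29.9% were higher and 31.9% lower in granule cells, and 29.5% and 26.7% in CA1. Rfxap, a subunit of the RFX complex, stood at 77.04, 79.8, 89.2 and 115 CPM in GFP granule, Ascl4 granule, GFP CA1 and Ascl4 CA1 cells, and Nfyc, a subunit of the CCAAT-binding factor, at 63.7, 149.9, 30.6 and 32.4 CPM. Nfyc was thus at least 1.5-fold higher with Ascl4 in granule cells, and neither gene differed by that much in CA1.

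Other class I heavy chains include the nonclassical molecules. Of 16 such genes in the table, 9 were at least 1.5-fold higher and 1 lower with Ascl4 in granule cells, and 9 higher and 3 lower in CA1. Shares of all genes were 29.9% higher and 31.9% lower in granule cells, and 29.5% and 26.7% in CA1. H2-Q7 stood at 0.107 CPM in GFP granule, 27.6 in Ascl4 granule, 0.152 in GFP CA1 and 87.9 in Ascl4 CA1 cells. H2-T23, the heavy chain of Qa-1, stood at 2.92, 26.4, 7.21 and 59.8 CPM, and H2-T22 at 10.8, 45.6, 22.8 and 59.6 CPM. H2-Q7 was 88.2% identical to H2-K1 and 89.8% to H2-D1 over aligned coding bases, with runs of up to 130 identical bases, so reads of these genes may be divided among them as well.

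Loading also needs general chaperones of the endoplasmic reticulum. Of 7 loading and trimming genes outside the 10, 2 were higher and 3 lower with Ascl4 in granule cells, and 3 higher and none lower in CA1. Among all genes 29.9% were higher and 31.9% lower in granule cells, and 29.5% and 26.7% in CA1, so these counts are near those shares in granule cells. Hspa5, the most abundant of them, stood at 1299, 734, 999 and 1179 CPM in GFP granule, Ascl4 granule, GFP CA1 and Ascl4 CA1 cells. Canx (calnexin) stood at 327, 150.5, 314 and 512 CPM and Pdia3, part of the loading complex, at 327, 180.6, 246 and 371 CPM. All 3 were lower with Ascl4 in granule cells, and Canx and Pdia3 were higher with Ascl4 in CA1.

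The rest of the proteasome was compared in the same way. Of 11 other subunits of the 20S core, 1 was higher and 1 lower with Ascl4 in granule cells and none either way in CA1. Psma7 stood at 422, 399.9, 278 and 341 CPM in GFP granule, Ascl4 granule, GFP CA1 and Ascl4 CA1 cells, Psmb1 at 365, 271, 236 and 295 CPM, and Psmb2 at 275, 273, 272 and 251 CPM. Of 5 activator and assembly genes, 2 were higher and 1 lower in granule cells and 3 higher and none lower in CA1. Beside both lists, 29.9% of all genes were higher and 31.9% lower in granule cells, and 29.5% and 26.7% in CA1. Of the 5, Psme1, a subunit of the interferon-inducible activator, stood at 88.5, 120.7, 69.1 and 107.7 CPM, Psme3 at 203.8, 105.4, 83.97 and 94.8 CPM, and the assembly factor Pomp at 264, 206.4, 196.96 and 243 CPM.

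The 3 constitutive catalytic subunits, which the inducible ones replace, give the scale. Psmb5 stood at 156.2, 168.5, 164.9 and 171.6 CPM in GFP granule, Ascl4 granule, GFP CA1 and Ascl4 CA1 cells, Psmb6 at 439, 435, 406 and 354 CPM, and Psmb7 at 126.2, 69.2, 103.7 and 79.4 CPM, and Psmb7 in granule cells was the only one past 1.5-fold, lower with Ascl4. Per kilobase, Psmb8 was 0.858% of Psmb5 in GFP granule cells and 5.28% in Ascl4 granule cells, and 4.07% and 11.6% in GFP and Ascl4 CA1 cells. Psmb9 was 0.536% and 2.55% of Psmb6 in granule cells and 1.53% and 2.92% in CA1. Psmb10 was 36.3% and 134.04% of Psmb7 in granule cells and 123.6% and 134.3% in CA1. So constitutive transcripts exceeded Psmb8 and Psmb9 in all 4 groups. Psmb10 exceeded Psmb7 only per kilobase, in all but GFP granule cells. In CPM Psmb10 was below Psmb7 in all 4 groups, at 22.9, 46.2, 63.9 and 53.1 CPM. Lengths are of all annotated exons of a gene, not of 1 transcript, and coding sequences of Psmb10 and Psmb7 were near equal in length (822 and 834 bases). The order of Psmb10 and Psmb7 thus depends on the length used. So does the size of the other shares, since coding sequences of Psmb8 and Psmb5 were also near equal (831 and 795 bases). In CPM Psmb8 stood at 33.4 against 168.5 for Psmb5 in Ascl4 granule cells, and at 74.7 against 171.6 in Ascl4 CA1 cells. Psmb9 stood at 21.7 against 435 CPM for Psmb6 and at 20.2 against 354 CPM in these groups. These are larger shares than per kilobase. Psmb8 exceeded Psmb5 per kilobase in 0 of 47, 3 of 51, 1 of 46 and 9 of 45 cells.

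**Figure D5:**
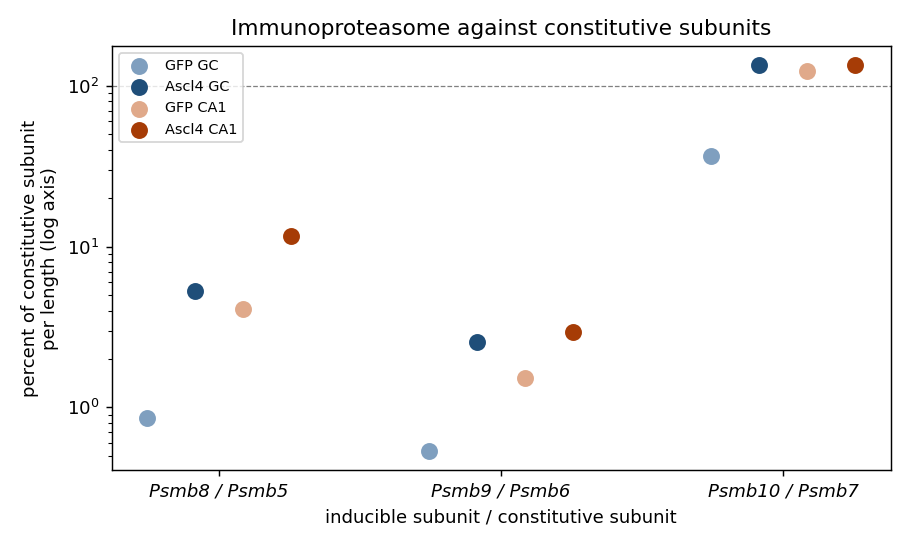
Level per kilobase of each inducible subunit as a percentage of the constitutive subunit it replaces (log axis), by group, from reads summed over cells; the dashed line is 100%. Psmb8 and Psmb9 lie below 12% in every group, and Psmb10 lies above 100% except in GFP granule cells. Lengths are of all annotated exons of a gene, and without division by length Psmb10 was below Psmb7 in every group. Without that division the shares of Psmb8 and Psmb9 were larger than shown, with Psmb8 at 74.7 against 171.6 CPM for Psmb5 in Ascl4 CA1 cells.

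Class II genes, which serve antigen-presenting cells, were also compared. Of 8, 6 were at least 1.5-fold higher and 1 lower with Ascl4 in granule cells, and 7 higher and none lower in CA1. Shares of all genes were 29.9% higher and 31.9% lower in granule cells, and 29.5% and 26.7% in CA1. Cd74, the class II invariant chain, stood at 0.135, 72.7, 2.79 and 265 CPM in GFP granule, Ascl4 granule, GFP CA1 and Ascl4 CA1 cells, and H2-Aa at 0.0419, 19.5, 0.0321 and 81.7 CPM. H2-DMa went the other way in granule cells, at 115 and 11.1 CPM, and stood at 89.9 and 74.01 CPM in CA1.

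Control cells of both types were then compared. In GFP CA1 against GFP granule cells, 8 of the 10 genes were at least 1.5-fold higher, where 34.7% of 12970 genes were higher, and 1 (H2-K1) was lower, where 28% of genes were lower. The log2 ratios were 2.56 for H2-D1, 1.84 for B2m, 2.25 for Tap2, 1.26 for Tapbp, 0.79 for Nlrc5, 2.12 for Psmb8, 1.23 for Psmb9 and 1.44 for Psmb10, with 0.33 for Tap1. The H2-K1 ratio of -2.87 rested on GFP granule cell WA064 and was 0.61 without it. That of Tap2 was 0.08 without GFP CA1 cell WA196, and that of Nlrc5 was -0.00073 without GFP CA1 cell WA200. The microglia list stood at 2565 CPM in GFP CA1 and 879 CPM in GFP granule cells, with 21 of its 24 genes at least 1.5-fold higher and none lower. Among cells with fewer than 3 markers 3 of the 10 genes were higher and 2 lower, where 34.1% of genes were higher and 36.2% lower.

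Between the Ascl4 groups, 8 of the 10 genes were at least 1.5-fold higher in CA1 than in granule cells, where 37.3% of 13515 genes were higher and 26.4% lower. The median log2 ratio of the 10 was 0.89 (all genes: 0.18). H2-K1 (1.30), H2-D1 (1.18) and B2m (1.37) were among the 8, and Psmb9 (-0.10) and Psmb10 (0.20) were not. Leaving out Ascl4 CA1 cell WA226 reduced the count to 3 (36.9% of genes were higher), with H2-K1 at 0.28, H2-D1 at 0.02 and B2m at 0.32. In the earlier run of title numbers 1 gene was higher and 5 were lower, where 38.7% of genes were higher and 34.5% lower. In cells with fewer than 3 microglia markers 1 was higher and 6 were lower, where 32.9% of genes were higher and 44.2% lower, so neither direction held through these alternatives. This comparison and those above share groups, and their ratios are given side by side without a test of any difference between cell types.

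Other genes were ranked by their likeness to the 10 over cells. By Spearman correlation with the mean log2 level of the 10, among genes with a read in at least 25% of cells and 10 CPM, the first 5 of 8642 in Ascl4 granule cells were Ctnna1 (0.65), Siglech (0.61), Aif1 (0.61), Ctsb (0.61) and Tmbim4 (0.60), against a median of 0.17 over all genes compared. In Ascl4 CA1 cells the first 5 of 8739 were Cd63 (0.73), Ctss (0.71), C3ar1 (0.70), Il1a (0.70) and Bcl2a1b (0.70), against a median of 0.10. Siglech, Aif1 and Ctss are on the microglia list. Aif1 was high in both groups (0.61 and 0.65), whereas Ctnna1, an adhesion protein that is no myeloid marker, was at -0.01 in Ascl4 CA1 cells. These values describe 51 and 45 cells, in which the mean level of the 10 had a correlation with reads per cell of 0.07 and -0.01. The part of microglia RNA in the ranking was not tested.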

How the data were processed

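Single neurons collected by patch pipette were sequenced, and STAR, HTSeq and build GRCm38.p4 are named in the submitters' processing notes. What versions and options they had is not given in the sources used here. Read counts per gene were deposited by the authors for 228 cells and for the 189 cells past their quality control, beside a signal table in which the deposited counts are divided by 1 factor per cell. Shared cells had identical counts. The series text states 204 cells past quality control, and the 189 in the table were used. The 92 spike-in rows (5 reads) were left out of totals.

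Reads were summed per group and scaled to CPM, and log2 ratios used a pseudocount of 1 CPM. Called means at least 1.5-fold. The background was taken over genes with a mean of at least 1 CPM in the 2 groups. Intervals are exact at 95%. Within a cell, presence means 10 CPM. No test was made, because no animal is labelled. Groups came from titles. The 10 genes and the gene lists were chosen with earlier results of these data known, and the promoter motifs after reading the promoters. All 10 genes are named. Of other lists the 3 genes of highest mean level are named (1 is not reported here), with 5 microglia markers and the 5 nearest genes, while cells, H2-M3, Pf4, Nkg7, Mbp and genes of lost calls were named after their values were seen. Alternatives covered scaling, pseudocount, filters, thinning to 500000 reads, runs of title numbers, subsets of cells and all 228 cells. The subsets with no microglia marker or only cells with 3 or more, and leaving out cell WA226 or each cell in turn, or the 1 or 2 cells of most reads in a class, were chosen after seeing the data. On simulated granule cells with 100 genes raised 4-fold and 100 lowered 4-fold among 9185 with at least 10 CPM in GFP cells, all were recovered. Of 8985 unchanged genes, 639 passed 1.5-fold. The simulated levels varied between cells with a standard deviation equal to the mean, besides counting error. Measured spread was larger for H2-D1, with a mean of 7.46 and a standard deviation of 30.6 CPM over GFP granule cells. In the measured granule cells, 29.9% of 12821 genes were at least 1.5-fold higher with Ascl4 and 31.9% lower. Because spread and filter differ, the simulated rate does not tell how many of these calls are true. Recovery was not tested for genes with most of their reads in 1 cell. TMM scaling used edgeR 4.0.16 in R 4.3.3, and the rest used scipy 1.17.1, pandas 2.3.3, numpy 2.4.6 and matplotlib 3.10.9 in Python 3.11.15. Annotation was GENCODE M21, matched by symbol for 22566 of 22870 genes, and promoters came from RefSeq (GRCm38.p6) for 8 of the 10.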

Additional observations from a re-analysis of the deposited data

Results flagged for a closer look

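Cells outside the quality-controlled table were used in no comparison. In the 5 Ascl4 granule cells among them, the 10 class I and loading genes summed to 297 CPM (exact Poisson interval 280 to 316), above the 27.9 CPM (25.3 to 30.7) of the 13 GFP granule cells left out. B2m gave 210.7 CPM and Psmb8 74.2 CPM of that sum, and H2-D1 stood at 7.02 CPM. The microglia list stood at 2899 CPM in these 5 cells and at 429 CPM in the 13, and its part in the difference was not tested. In CA1 the order was the other way, with 1076 CPM in 8 GFP cells (microglia list 49149 CPM) and 621 CPM in 13 Ascl4 cells (3985 CPM).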

How the results depend on the processing

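No paired analysis was possible because the groups share no title numbers. Each group is 1 sample, and counts of 1 to 4 reads in GFP or Ascl4 granule cells give Tap1, Tap2 and Nlrc5 wide counting intervals. Of 800 log2 ratios over 20 alternatives, 49 of genes past 1.5-fold changed sign, 1 of them for Ascl4 against GFP in granule cells, and their causes were not tested. Scaling shifted the median of all genes by more than 0.1 for Ascl4 CA1 against Ascl4 granule cells (0.18, with TMM 0.07, median-of-ratios 0.03 and the authors' normalized values -0.18) and for GFP CA1 against GFP granule cells (0.08, with TMM -0.03, median-of-ratios -0.03 and the authors' values -0.14).

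Shares of all genes that were higher are given in brackets where they were computed. The count of genes higher in Ascl4 than GFP granule cells was 6 to 9. It was 6 in the second run (30.3%), without cells of 3 or more microglia markers (30.8%) and in cells of no marker (35.02%). In CA1 it was 8, and 4 in the first run of title numbers (40.4%), 2 without cells of 3 or more microglia markers (30.02%) and 2 in cells of no marker (32.4%). For GFP CA1 against GFP granule cells it was 8, and 3 (34.1%) without cells of 3 or more markers and 2 (34.5%) in cells of no marker. For Ascl4 CA1 against Ascl4 granule cells it was 8, and 5 with a 2-fold call, without the highest cell per gene, with a pseudocount of 10 or with median-of-ratios. With the authors' values it was 3. It was 1 in the first run (38.7%), 1 without cells of 3 or more markers (32.9%) and 1 in cells of no marker (28.8%). In cells of 3 or more it was 2 (41.6%), and without cell WA226 it was 3 (36.9%). Cells with 3 or more of the genes numbered 6 (GFP granule), 27 (Ascl4 granule) and 15 (GFP CA1) at 1 CPM, against 1, 16 and 6. GFP granule cells numbered 0 at 50 CPM and 3 after thinning. Without cells of 3 or more markers the counts were 5 of 32 Ascl4 granule, 0 of 20 GFP CA1 and 0 of 8 Ascl4 CA1 cells.

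Sign changes for Ascl4 against GFP were Tapbp in the second run (-0.092 in granule cells, -0.057 in CA1) and, in CA1, Psmb9 in the mean of per-cell CPM (-0.28), thinned (-0.41), with the authors' values (-0.71), in the first run (-4.25) and in cells of 3 or more markers (-0.014). Without cells of 3 or more markers, CA1 ratios were B2m -1.44, Tapbp -5.24, Psmb8 -0.26 and Psmb9 -0.033, and in cells of no marker Tap2 -0.0049 and Tapbp -4.79. For GFP CA1 against GFP granule cells, H2-K1 was 0.0091 without the highest cell, 0.79 without the deepest cells and 0.89 in cells of 3 or more markers. In that last subset Nlrc5 was -0.025 and Psmb9 -0.022. Without such cells H2-D1 was -2.40, Tap2 -0.0051 and Psmb9 -0.023, and in cells of no marker H2-D1 was -1.76, B2m -2.83 and Psmb9 -0.065.

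For Ascl4 CA1 against Ascl4 granule cells, Tapbp was -0.33 without the deepest cells. With the authors' values Tap2 was -0.51, Tapbp -0.27 and Psmb8 -0.65. In the first run H2-K1 was -2.67, H2-D1 -1.01, B2m -0.068, Tap2 -3.32 and Psmb8 -1.79. Without cells of 3 or more markers H2-K1 was -4.31, H2-D1 -1.60, B2m -4.10, Tap2 -0.018, Tapbp -4.76, Nlrc5 -0.0072 and Psmb8 -2.29. In cells of no marker H2-K1 was -4.45, H2-D1 -4.91, B2m -4.95, Tap2 -0.059, Tapbp -3.89 and Psmb8 -0.13. In cells of 3 or more markers Tap2 was -0.60 and Psmb8 -0.036, and without cell WA226 Tap1 was -0.077.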
